A study of Mus musculus with 384 samples.

Results

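The cells described here are embryonic mammary progenitors sorted by an Lgr5 reporter. They are the wells titled as single embryonic progenitor cells whose sort label names the same gate, and that passed 3 limits: no fewer than 50000 gene reads, 1500 or more genes seen, and a mitochondrial share of reads no higher than 20%. The same limits kept 331 single cells in the whole series, of which 100 were adult basal. All but 14 of the embryonic wells passed. The kept embryonic cells fall into 3 sets used below: 92 cells deep enough for thinning, 16 that were shallower, and 15 deep wells with high collagen levels. The embryos carried Lgr5-EGFP-IRES-CreER, in which a green fluorescent protein and an inducible Cre recombinase are expressed from the Lgr5 gene, and were taken at embryonic day 14. Whole skin with the mammary buds of female embryos was digested to single cells. Cells labelled for CD45, CD31 or CD140a and dead cells were excluded, and cells with high CD49f and high Lgr5 reporter were sorted singly into a 384-well plate. The adult cells used for comparison came from glands of mice labelled Rosa-tdTomato, sorted as basal (CD24+CD29Hi) or luminal (CD24+CD29Lo). Kept cells that were neither embryonic nor basal were luminal. No adult age is used here. RNA was copied with a modified Smart-seq2 protocol, which reads whole transcripts from an oligo-dT primer. Because no animal or litter is named, the cells of a gate were treated as 1 sample, and differences between gates or between groups of cells are given as values with no test. Age, genotype and sort gate differ together between the embryonic and adult cells and cannot be told apart. Plate position differed as well. Only 14 kept embryonic wells lay in plate rows A to J, where most adult wells lay, and the other embryonic wells lay in rows K to P.

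Mammary buds are small epithelial ingrowths of the embryonic skin that form along the milk line, each wrapped in a dense mesenchyme. Lgr5 is a receptor for R-spondins, which strengthen Wnt signalling, and marks progenitor or stem cells in several epithelia. Cells of the bud are known to make both basal and luminal keratins, which part into separate layers later in development, and to signal to the mesenchyme around them with parathyroid hormone-like hormone (Pthlh), whose receptor Pth1r sits on the mesenchymal cells.

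The median kept cell had 711721 gene reads (52687 to 1836609), 5518 genes with a read (2217 to 8546) and 5.43% mitochondrial reads (3.23 to 16.6). Of the 14 wells left out, 10 had too few reads, 6 too few genes and 5 too many mitochondrial reads, with overlaps. To count cells that hold a gene at equal depth, each cell was thinned at random to 200000 reads, and a gene was called detected at 5 reads, or 25 counts per 1000000 reads (CPM). This covers the 92 and the 15 embryonic cells and 82 basal cells, and leaves out 16 embryonic, 18 basal and 7 luminal cells that were shallower. Median depth before thinning was 486690 reads in the basal and 535276 in the luminal gate. Intervals are exact 95% Clopper-Pearson intervals, and a share of 0 is read as allowing up to 3 cells, which is 2.80% of the thinned embryonic, 3.66% of the basal and 2.97% of the luminal cells. Both cover counting error only, because reads amplified by PCR without molecular identifiers are not independent molecules.

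The label's 6 marker genes were described first, with the positions that GENCODE M21 gives on GRCm38: Lgr5 (chr10:115450311-115587780), Sox11 (chr12:27334264-27342574), Krt14 (chr11:100203162-100207548), Igf2 (chr7:142650766-142666816), H19 (chr7:142575529-142578143) and Trp63 (chr16:25683763-25892102). These markers were chosen with earlier results of these data known, and Lgr5 is the gene of the sorted reporter. Their detection is therefore no independent check of the label. Lgr5 itself ran from 0 to 3002 CPM over all kept cells, with a median of 424, and was detected in 84.1% of the thinned cells (75.8 to 90.5), against 34.1% of basal and 8.91% of luminal cells. Sox11, a transcription factor of embryonic progenitors, ran from 0 to 10811 CPM (median 968) and was detected in 92.5% of cells, against 3.66% and 1.98% in the adult gates. Krt14, a basal keratin, ran from 0 to 3761 CPM (median 720) and was detected in 84.1%, against 76.8% of basal and 6.93% of luminal cells. The fetal growth factor Igf2 and the non-coding RNA H19, neighbouring imprinted genes, were detected in nearly every embryonic cell and in few adult cells. Igf2 was detected in 97.2% (0 to 7269 CPM, median 377), against 2.44% and 0.990%. H19 was detected in 96.3% (0 to 9062 CPM, median 482.5), with the same adult shares as Igf2. Trp63, the p63 transcription factor of basal epithelia, was the least often detected, in 66.4% of embryonic, 67.1% of basal and 4.95% of luminal cells, and ran from 0 to 2583 CPM (median 93.4). Without thinning, 5 reads or more were present in 86.99% of all kept cells for Lgr5, 94.3% for Sox11, 82.9% for Krt14, 97.6% for Igf2, 91.9% for H19 and 75.6% for Trp63. All 6 of these markers were found together in 56 of the thinned cells (52.3%), 5 of them in 35, 4 in 5, 3 in 6, 2 in 4, and none in 1. In the adult gates 1 basal and 1 luminal cell held all 6.

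**Figure D1:**
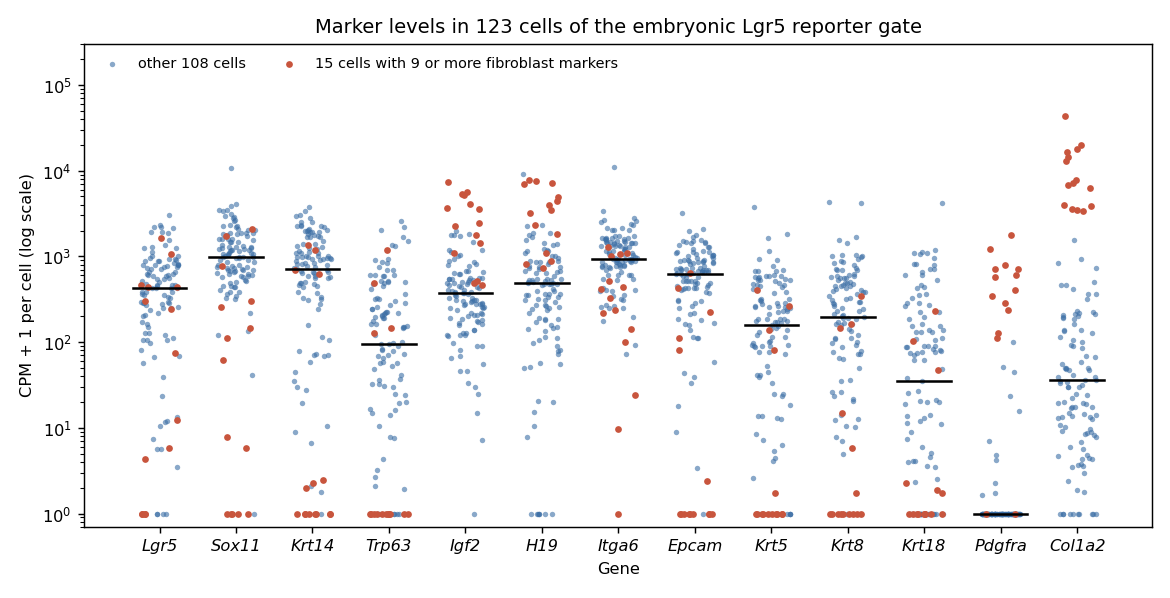
Level of each marker gene in each kept embryonic cell, as CPM + 1 on a log axis; each point is a cell, red points mark the 15 cells with 9 or more of 14 fibroblast markers, blue points the other cells, and black lines the median over all cells. Igf2 (465.5 to 7269 CPM) was present in all 15 of these cells, while the median of Krt14 in them was 0.

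Genes of the sort were also read out. Itga6, the CD49f integrin of the gate, was detected in 97.2% of cells and ran from 0 to 11132 CPM, with a median of 934. Ptprc, the CD45 gene, had 0 reads in every cell, and 0 of the thinned cells allows a share of up to 2.80%. Pecam1, the CD31 gene, was detected in 2 thinned cells (1.87%). Pdgfra, the CD140a gene, was detected in 16 thinned cells (14.95%, 8.79 to 23.1), although cells with CD140a on their surface were excluded. Xist, the RNA of the inactive X chromosome, had 5 reads or more in all but 2 kept cells, and the 4 Y-linked genes looked at (Ddx3y, Eif2s3y, Kdm5d and Uty) had 0 reads.

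A group of 15 wells stood apart from the others by collagen and other fibroblast genes. They were defined after the data were seen, as wells with 9 or more of 14 fibroblast markers at 5 reads or more. No well had 8 markers and 5 wells had 7. The summed level of the 14 markers was 8283 to 96704 CPM in the 15 wells (median 21153) and 0 to 5280 CPM in the other cells (median 294). The 15 wells held 91.3% of all fibroblast-marker reads of the gate and 12.3% of its reads in total. Pdgfra was at a median of 408 CPM in them and 0 in the others, and fell to 3.26% of cells detected when they were left out. It is among the 14 markers that chose the wells, so these values and the share of marker reads follow in part from that choice. In 10 of the 15, but in 1 of the other cells, Epcam, Krt14, Krt5 and Trp63 were all under 25 CPM. In 4 of the 15, Krt14 was present beside collagens, at 616 to 1351 CPM, and 1 more well had Epcam at 225 CPM with Krt14, Krt5 and Trp63 at 0. No doublet caller was run, and whether those wells held more than 1 cell was not tested. The 15 wells lay in 8 plate rows, at most 4 in a row. Fewer of the markers were found in many more cells: 59 of the thinned embryonic cells (55.1%) held 3 or more of the 14 markers, against 23.2% of basal and 0.990% of luminal cells. For the counts these wells could move most, the value without them is given too, over the 92 other thinned cells.

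**Figure D2:**
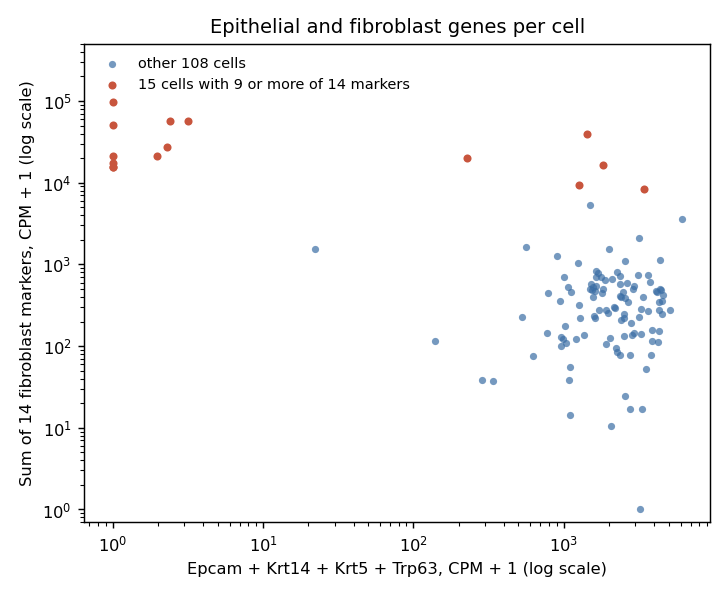
Sum of 14 fibroblast marker genes against the sum of Epcam, Krt14, Krt5 and Trp63 in each kept embryonic cell, both as CPM + 1 on log axes. The 15 cells with 9 or more fibroblast markers sit at 8283 CPM or more on the vertical axis, above all other cells (5280 at most), and 10 of them have each of the epithelial genes under 25 CPM.

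These wells moved the label markers unevenly. Krt14 had a median of 812 CPM outside the 15 wells and 0 in the 15, and Epcam, a surface protein of epithelial cells, 652 and 0. Sox11 had medians of 1052 and 60.5 CPM. Lgr5 had medians of 431 and 73.4 CPM, and ranges that overlapped in full, from 0 to 3002 and from 0 to 1618. So the transcript of the sorted reporter's gene was present in some of the collagen-high wells and not in others. Igf2 went the other way, at 318 CPM outside the 15 wells (0 to 1969) and 2455 in the 15 (465.5 to 7269). H19 had medians of 393 and 3445 CPM, and its highest value, 9062, was in a cell outside the 15. Without the 15 wells, Sox11 was detected in 98.9% of 92 cells, Igf2 in 96.7%, H19 in 95.7%, Krt14 in 93.5%, Lgr5 in 89.1% and Trp63 in 72.8%, and 52 cells held all 6 markers, 35 held 5, 4 held 4 and 1 held none.

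Fewer wells carried markers of other cell types. Of the thinned cells, 0 held 3 or more markers of immune, endothelial, melanocyte, Schwann, Merkel, erythroid, muscle or adipose cells, which allows up to 2.80% for each. At least 1 marker was detected in 19 cells for immune, 17 for adipose, 10 for muscle and 7 for Schwann cells. For melanocyte markers it was 6 cells, for endothelial 5 and for Merkel 0. Markers of suprabasal epidermis or periderm reached 3 in 5 cells (summed level 0 to 2068 CPM, median 26.6), and markers of hair placodes in 5 cells (0 to 2335 CPM, median 79.5), with the placode genes Shh and Foxi3 at 0 reads. At least 1 globin or other erythroid marker was detected in 54 of the thinned embryonic cells but in 2 basal and 2 luminal cells. Their summed level was low, 0 to 792 CPM with a median of 28.1, and the globin genes Hba-a2 and Hbb-bh1 had 0 reads. Hba-a1, an alpha globin, had a read in 62.6% of cells and 5 reads in 23.4%. The part of these RNAs in any result was not tested.

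Abundance was compared between genes per length, as summed reads per kilobase of exon scaled so that all genes add up to 1000000 (the level per length). The 100 most abundant genes held 33.4% of that total, the first 10 held 17.1% and the first 1000 held 63.5%. Of the 100, 38 were named as ribosomal proteins, 9 were mitochondrial and 53 were other genes. Mitochondrial ribosomal RNA (mt-Rnr2, 65518) led, followed by the clone-named gene CT010467.1 (34603), and both were in every cell. By that level the first of the other genes were Actb (5898), the cytoplasmic actin, Eef1a1 (5516), an elongation factor of translation, and the nuclear RNA Malat1 (4093). Calm2 (3373), a calmodulin, Ftl1 (3337), an iron storage subunit, and the chaperone Hsp90ab1 (3288) came next. The order then ran through Tceal9 (2800), the cytokine Mif (2769), Selenow (2718), the tubulin Tubb5 (2658), the actin-binding Tmsb4x (2321) and the galectin Lgals1 (2133).

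Epithelial and fetal genes also reached that abundance. Krt14 was the most abundant keratin, at a level per length of 1827, above Cd24a (1529), the CD24 surface protein, and Id3 (1510), a target of BMP signalling. H19 was at 1211 and Sparc, a secreted matrix glycoprotein, at 1115. Tubb5 was at 2796 CPM in the embryonic sum, against 377.5 in the basal and 117.9 in the luminal sum, and Id3 at 855 CPM against 164 and 78.4. Prdx2, an antioxidant enzyme and the last of the 30 most abundant genes named here, was at 1234 CPM against 306 and 472. Actb, by contrast, was at 4996, 5088 and 4291 CPM in the 3 gates. Abundance could rest on few cells, as for Lgals1, whose level in the sum was 609 CPM and whose median over cells was 88.5.

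At equal depth more genes were found in embryonic than in adult cells, but thinning sets reads equal and not the RNA caught per cell. Spike-ins, RNAs added to each well, took a median of 3.72% of the reads of kept embryonic cells before thinning. Their median share was 8.01% in basal and 5.075% in luminal cells. The part of captured RNA in shares of cells compared between gates was not tested. A thinned embryonic cell had a median of 4969 genes with a read (2238 to 7115), of which 3574 were detected (1766 to 5224), against 2680 and 1944 in basal and 3441 and 2370 in luminal cells. In the embryonic gate 342 genes were detected in at least 90% of cells and 85 in every cell, while the same 90% was reached by 146 genes in the basal and 226 in the luminal gate. At least 50% of cells held 2213 genes, which is 19.2% of the 11501 genes with 5 CPM or more in the gate, and 9001 genes were in at least 10%. Between 2 embryonic cells the median Spearman correlation was 0.297 (0.156 to 0.654), against 0.257 between basal and 0.279 between luminal cells. Each was taken over the genes with a mean of 20 CPM or more in that gate, so the gene sets differ.

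Transcription factors known from the mammary bud were among the widely detected genes. Of a list of 20 such factors, 14 were measured at 5 CPM or more and 9 of these were detected in at least 50% of cells, beside 19.2% of all measured genes. After Sox11, Gata3, which specifies mammary epithelium, was detected in 87.9% (0 to 5314 CPM, median 729), Tbx3, needed for bud formation, in 85.05% (0 to 1437 CPM, median 212.5) and Sox4 in 85.05%. Lef1, which carries Wnt signals to DNA, was detected in 78.5% of cells (0 to 967 CPM, median 104.5), against 1.22% of basal and 0.990% of luminal cells. Gata3 had a median of 886.5 CPM outside the 15 wells and 0 in the 15 collagen-high wells, while Sox4 had 186 in these wells and 125.7 over all cells. Gata3, Tbx3, Sox11 and Lef1 were detected in the same cell in 72 thinned cells (67.3%, 57.6 to 76.1), in 69 of 92 without the 15 wells, in 1 basal cell and in 0 luminal cells. At the other end of the list, Msx1 and Msx2, homeobox factors of the bud, were detected in 3.74% and 5.61% of cells.

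Basal and luminal keratins were found in the same cells. Krt14 with Krt8, a keratin of simple and luminal epithelia, was detected in 78 thinned cells (72.9%, 63.5 to 81.04), Krt14 without Krt8 in 12, Krt8 without Krt14 in 6 and neither in 11. Without the 15 wells it was 75 of 92 (81.5%), and no cell lacked both keratins (0 of 92, which allows up to 3.26%). The same pair was detected in 34 of 82 basal cells (41.5%) and 7 luminal cells (6.93%). Krt5, the partner of Krt14, ran from 0 to 3807 CPM (median 155) and Krt8 from 0 to 4275 CPM (median 195). All 4 of Krt14, Krt5, Krt8 and Krt18 were in 44 thinned cells (41.1%), in 41 of 92 without the 15 wells, and in 14 basal and 3 luminal cells. The levels of Krt14 and Krt8 did not track each other over cells (Spearman 0.16 over all kept cells, -0.08 without the 15).

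Markers of luminal cells were uneven, and the contraction genes Acta2 and Oxtr were seldom detected. Of 20 luminal genes, 14 were measured at 5 CPM or more, and 5 of these, Epcam (88.8%), Krt8 (78.5%), the estrogen receptor Esr1 (58.9%), Cldn7 (55.1%) and Krt18 (54.2%), were detected in at least 50% of cells, beside 19.2% of all measured genes. Esr1 was detected in 46.5% of luminal cells. Foxa1, Krt7 and Wfdc18 were detected in none of the thinned cells, and in 42.6%, 57.4% and 37.6% of luminal cells. Prlr, the prolactin receptor, was detected in 4.67% and Elf5, a factor of milk-secreting cells, in 2.80%. Esr1 was at a median of 30.1 CPM. Acta2, the smooth muscle actin of myoepithelium, was detected in 3.74% of embryonic and 85.4% of basal cells, and Oxtr, the oxytocin receptor, in 0% and 65.9%. Of the 8 contraction genes, 4 were measured at 5 CPM or more. Of these, 0 were in at least 50% of the embryonic cells, beside 19.2% of all measured genes, and 4 genes are too few to set the list apart.

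Of 25 measured genes for secreted signals, 7 were detected in at least 50% of cells, beside 19.2% of all measured genes. Ndnf, a secreted neurotrophic factor, led after Igf2, with 90.7% of embryonic cells against 1.22% and 0.990% in the adult gates, and ran from 0 to 4723 CPM with a median of 888. Pthlh was detected in 77.6% of cells (0 to 1920 CPM, median 195), against 3.66% and 0.990%. Pthlh had a median of 244 CPM outside the 15 wells and 0 in the 15, while its receptor Pth1r had 0 and 256, with 5 reads or more in 13 of the 15 and in 11 of the other cells. Of the Wnt ligands, Wnt5a was detected in 74.8%, Wnt6 in 73.8%, Wnt4 in 66.4%, Wnt3 in 49.5% and Wnt7a in 38.3% of cells. Wnt3 and Wnt7a were detected in no adult cell. Wnt6 (median 198 CPM outside the 15 wells, 0 in them) and Wnt5a (82.6 and 244) differed in opposite directions between these wells. Each thinned cell held at least 1 of 9 Wnt ligands and 78 held at least 3 (72.9%, and 75 of 92 without the 15 wells), while 39 of 82 basal and 56 luminal cells held 1 or more. Shh, Wnt3a and Fgf4 had no read in the thinned cells.

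Receptors of these pathways were found in the same gate. Of 34 measured receptors, 16 were detected in at least 50% of cells, beside 19.2% of all measured genes. They were led by Fgfr2, a receptor of fibroblast growth factors that the bud needs, in 90.7% (0 to 6064 CPM, median 683). Fgfr2 had a median of 747 CPM outside the 15 wells and 4.75 in the 15. The insulin-like growth factor receptor Igf1r was detected in 81.3%, Bmpr2 in 79.4% and Lrp6, a Wnt co-receptor, in 74.8%. Of the relatives of Lgr5, Lgr6 was detected in 61.7% and Lgr4 in 55.1% of cells. At least 2 of the 3 were in 76 thinned cells (71.03%) and all 3 in 38 (35.5%, and 36 of 92 without the 15 wells), against 7 basal and 2 luminal cells with all 3. At least 1 frizzled receptor was in 95.3% of cells, against 81.7% of basal and 28.7% of luminal cells. At least 1 Notch receptor was in 90.7%, against 50% and 86.1%. Tnfrsf19 was detected in 59.8% of embryonic cells but in 0 of 82 basal and 0.990% of luminal cells, and Fzd10 in 38.3%, 0% and 0.990%.

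Wnt targets and feedback genes were split. Znrf3, which removes frizzled receptors from the surface, was detected in 86.9% of cells, and Ccnd1, the cyclin D1 gene, in 85.98%. Rnf43, the relative of Znrf3, was in 53.3% and Nkd1, an inhibitor, in 52.3%. Axin2, a widely used readout of Wnt signalling, was detected in 40.2% (30.8 to 50.1) and ran from 0 to 1303 CPM with a median of 9.94. It was detected in 35.9% of the 92 cells, and in 7.32% of basal and 0.990% of luminal cells. Lgr5 did not track Lef1 over cells (Spearman -0.14 over all kept cells).

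Of 17 measured fetal growth and imprinted genes, 6 were detected in at least 90% of cells, beside 2.97% of all measured genes. Apart from Igf2 and H19 these were Nnat (97.2%), the cell cycle inhibitor Cdkn1c (96.3%), Gnas (96.3%) and Grb10 (91.6%), a brake on insulin and growth factor receptors. Grb10 was detected in 2.44% of basal and 6.93% of luminal cells, and Cdkn1c in 7.32% and 2.97%. Cdkn1c ran from 0 to 2617 CPM with a median of 458. RNA-binding proteins of the Igf2bp family and chromatin genes of fetal tissue were found as well. Igf2bp1, Igf2bp2 and Igf2bp3 were detected in 61.7%, 70.1% and 51.4% of cells, at least 1 of them in 100 thinned embryonic (93.5%, and 87 of 92 without the 15 wells), 2 basal and 16 luminal cells. Dnmt3a, a DNA methyltransferase, was in 93.5%, Ezh2, the Polycomb methyltransferase, in 74.8% and Hmga2 in 69.2%, against 1.22% and 0.990% for Hmga2 in the adult gates.

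**Figure D3:**
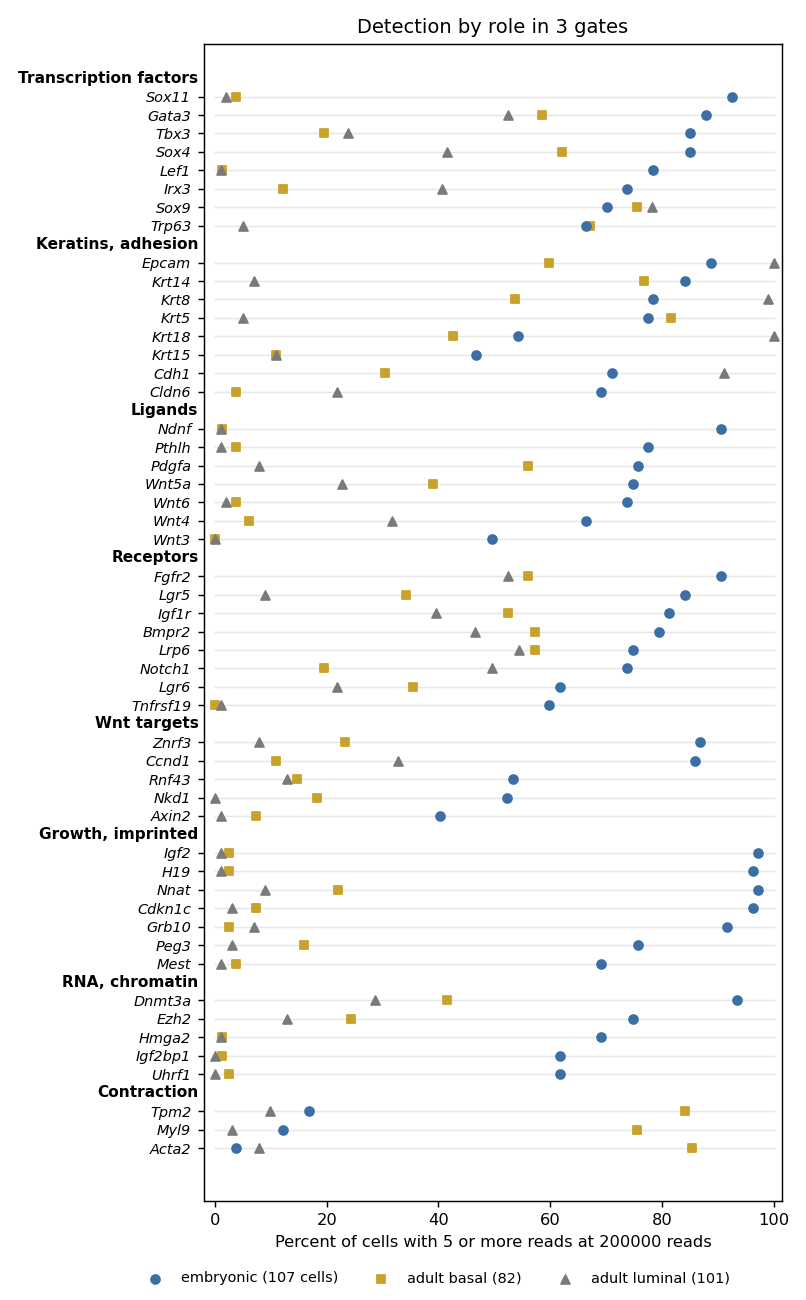
Percent of cells in which each gene had 5 or more reads at 200000 reads per cell, by role, for the thinned embryonic, adult basal and adult luminal cells; each point is the share in 1 gate. Sox11, Lef1, Ndnf and Pthlh lie at 77.6% or more in the embryonic cells and under 4% in both adult gates, whereas Krt14 lies at 84.1% and 76.8% in the embryonic and basal cells.

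Matrix and adhesion genes of the epithelium were present too. Mfap2, a microfibril protein, was detected in 94.4%, Sparc in 93.5%, agrin (Agrn) in 92.5% and fibronectin (Fn1) in 88.8% of cells. Without the 15 wells Fn1 was in 88.04% of cells, with a median of 454 CPM against 498 over all cells. Fn1 was detected in 1.22% of basal and 0.990% of luminal cells, whereas Sparc was in 92.7% and 7.92%. Ctnnb1, the beta-catenin of junctions and Wnt signalling, was detected in 97.2% of cells, the desmosomal Jup and Dsp in 80.4% and 79.4%, the cadherins Cdh1 and Cdh3 in 71.03% and 70.1%, and Cldn6, a claudin of embryonic epithelia, in 69.2%. Cldn6 was in 3.66% of basal and 21.8% of luminal cells. Of 14 glycolysis genes, 10 were in at least 50% of cells, beside 19.2% of all measured genes, and Pkm was in all of them. Stress-responsive early genes were also present, which can be induced by dissociation: Egr1 was detected in 92.5% and Fos in 78.5% of cells, against 97.6% and 91.5% of basal cells. Hox genes were detected in few cells each. The most frequent was Hoxc8, in 20.6%, and 62 thinned cells held at least 1 of the 39.

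Variation between cells was measured as the squared coefficient of variation of CPM over all kept cells and set against a smooth trend on mean level over all 7975 genes with a mean of 20 CPM or more. The trend fell from a median of 8.69 for genes of 20 to 50 CPM to 4.24 at 50 to 200, 1.44 at 200 to 1000 and 0.402 at 1000 CPM or more. The spike-ins, RNAs added at fixed amounts and scaled here to the spike-in reads of each cell, were set against the same trend. Of the 8 at 2000 CPM or more, 0 reached 2 times the trend, and the most abundant had a value of 0.0396. Of the 9 from 200 to 2000 CPM, 5 reached it, and of the 21 from 20 to 200 CPM, 10 did, with a highest ratio of 7.72. A ratio of 2 below 2000 CPM was therefore within the spread of RNA added in equal amounts, and a call ranks genes against each other only. A gene was called more variable at 2 times the trend, which 943 genes reached (11.8%). Many of these calls rested on single cells. In 162 of the 943 genes (17.2%) 1 cell held 50% or more of the gene's summed CPM, and the highest cell held a median of 33.2% in the called genes and 12.5% in all genes. Of the 25 genes with the largest ratio, 18 had 50% or more in 1 cell, as Il1r1 did with 99.3%. When the 3 highest cells of each gene were left out, an alternative chosen after seeing the data, 142 of 7972 genes (1.78%) were called, of which 71.8% had been called before. Leaving out the 15 wells gave 977 called genes (12.4%).

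Fibrillar collagens stood high under both measures. Col1a2 had 33.4 times the variation of the trend, and 23.8 times without its 3 highest cells, and ran from 0 to 43351 CPM with a median of 34.9. Col3a1 had 22.3 and 22.8 times and a highest level of 19748 CPM, and Col1a1 had 19.2 and 10.6 times. Col1a2 fell from 1500 CPM in the gate's sum to 94.03 without the 15 wells, and Col3a1 from 1228 to 94.1. These collagens are among the fibroblast markers that chose the 15 wells, so a fall without the wells follows from that choice. Other matrix genes came next by ratio, among them the proteoglycans Dcn and Lum, which are also such markers, and Lgals1, Fbn2 and Sparc. Sparc was also high in epithelial cells, with a median of 621 CPM without the 15 wells.

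Among genes of the lists, 31 of 228 with a mean of 20 CPM or more were called more variable, and 20 without the 3 highest cells. Leaving out the 15 wells gave 27 and 10. These counts stand beside 11.8% and 1.78% of all genes with these wells, and 12.4% and 1.29% without them. Imprinted genes gave 6 of 16 (H19, Igf2, Meg3, Ndn, Peg3 and Plagl1), of which all but Ndn were called also without the 3 highest cells. Without the 15 wells, 2 of 14 were called (H19 and Ndn), and 1 (Plagl1) when the 3 highest cells were left out too. The variation of several of them moved with the collagen-high wells. Peg3, a zinc finger gene, had a median of 112.1 CPM outside the 15 wells and 2390 in the 15, and the non-coding Meg3 15.2 and 1143, each with 5 reads or more in all of the 15. Igf2 was at 727 CPM in the gate's sum and 387 without the 15 wells, and H19 at 942 and 580. The correlation of H19 with Igf2 over cells was 0.45 with the 15 wells and 0.25 without, that of Igf2 with Krt14 was -0.37 and -0.21, and that of Igf2 with Col3a1 was 0.25 and -0.04.

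In the epithelial lists, keratins were among the called genes. Counts in this paragraph stand beside 11.8% of all genes called, or 1.78% without the 3 highest cells. Without the 15 wells these shares were 12.4% and 1.29%. In the basal list Itga6, Krt15 and Krt17 were called of 14 with enough reads, and Krt15 and Krt17 also without the 3 highest cells. Krt17 had a median of 0 and a highest level of 3605 CPM, and Krt15 a median of 16.97 and a highest of 7315. All 3 were called also without the 15 wells, as was Dst, and Krt15 and Krt17 again without the 3 highest cells. Of 9 luminal genes Kit, Krt18, Krt8 and Prlr were called, and 0 without the 3 highest cells. Of 28 receptors, 0 were called under either measure, and 1 (Fzd1) over all cells of each gene without the 15 wells. Of 21 ligands 1 was called (Igf2), and 0 without the 15 wells. Of 13 bud factors Sox11 and Trps1 were called, and 0 without the 3 highest cells. The median ratio to the trend was 0.901 over the 13 bud factors and 0.997 over all genes.

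Among the 10 steadiest genes relative to the trend were Tmsb10, an actin-binding peptide at 0.110 times the trend, and the ribosomal proteins Rpl24 and Rpl26. Tsix, the antisense partner of Xist, was also among them, but reads of Xist and Tsix cannot be told apart when the strand used in counting is not given.

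**Figure D4:**
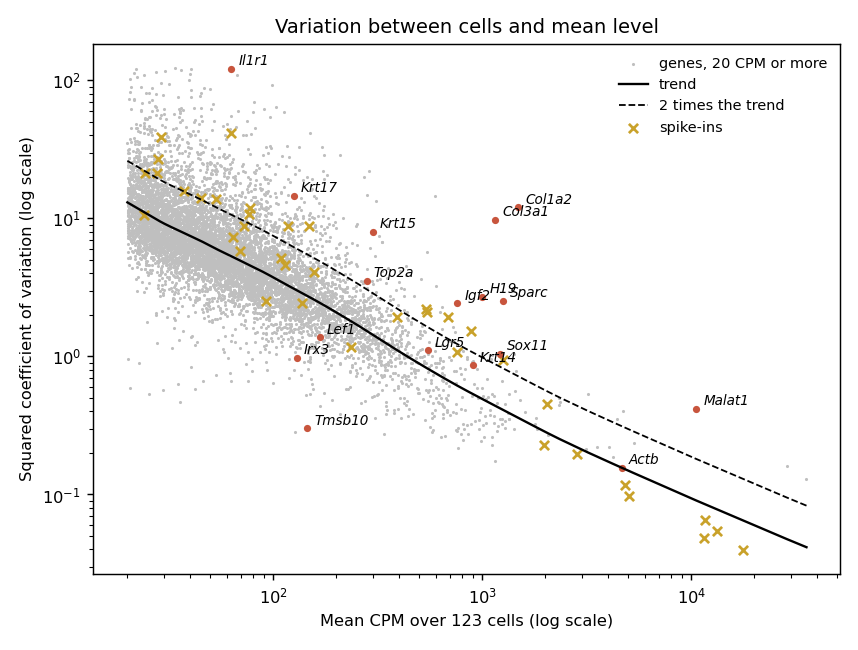
Squared coefficient of variation of CPM over all kept cells against mean CPM, both on log axes; grey points are genes with a mean of 20 CPM or more, the line is the trend, the dashed line is 2 times the trend, crosses are spike-ins and labelled red points are chosen genes. Among these Col1a2 (33.4 times the trend), Il1r1 (22.8) and Col3a1 (22.3) lie highest above the line, and Tmsb10 (0.110) lies below it.

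Genes of G2 and M phase formed the other pattern. Of 26 genes of G2 and M phase with enough reads, 6 were called (Ccnb1, Cdc20, Cenpf, Hmmr, Top2a and Ube2c), and 5 without the 3 highest cells (Mki67 in place of Cdc20 and Hmmr). These counts stand beside 11.8% and 1.78% of all genes. Top2a, the topoisomerase that untangles chromosomes, ran from 0 to 2366 CPM with a median of 7.88 and an upper quartile of 288. Mki67, the proliferation antigen, had a median of 0, an upper quartile of 226.9 and a highest level of 1635 CPM. So most cells had few or no reads of these genes, and a minority had high levels. At least 14 of the 28 G2 and M genes were detected in 28 thinned cells (26.2%, 18.2 to 35.6), 25 of 92 without the 15 wells, 1 basal and 0 luminal cells, while 51 embryonic cells held 2 or fewer. At least 10 of 20 S phase genes were in 32 thinned cells (29.9%, 21.4 to 39.5), 28 of 92, and in 0 adult cells of either gate. Of 19 S phase genes with enough reads 1 was called more variable (Mcm4), and 0 without the 3 highest cells. Without the 15 wells, Mcm4 and Rpa2 were called. Top2a and Mki67 had a Spearman correlation of 0.66 over all kept cells and 0.69 without the 15. Cells shared 1 plate and differed in depth, and correlations over cells are given here as descriptions.

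Which variable genes go together was described by linking the 200 genes with the largest ratio at a mean correlation of 0.3. Over all cells this gave 1 group of 8 genes, Col1a1, Fbn2, Col3a1, Sparc, Col1a2, Lgals1, Dcn and Meg3, and without the 15 wells it gave 0 groups. Of these genes, Col1a1, Col3a1, Col1a2 and Dcn are among the markers that chose those wells. With genes ranked without their 3 highest cells there were 2 groups, 54 genes led by the matrix and mesenchymal genes Adamtsl1, Cd34, Col6a1, Ddr2, Ednra and Sulf1, and 12 genes led by the mitotic genes Mki67, Cenpf, Smc2, Top2a, Ube2c and Ccnb1. With that ranking and without the 15 wells, the 1 group left was again mitotic, with 12 genes led by Mki67 (mean correlation 0.64), Cdk1, Cenpf, Smc2, Cdca3 and Top2a.

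**Figure D5:**
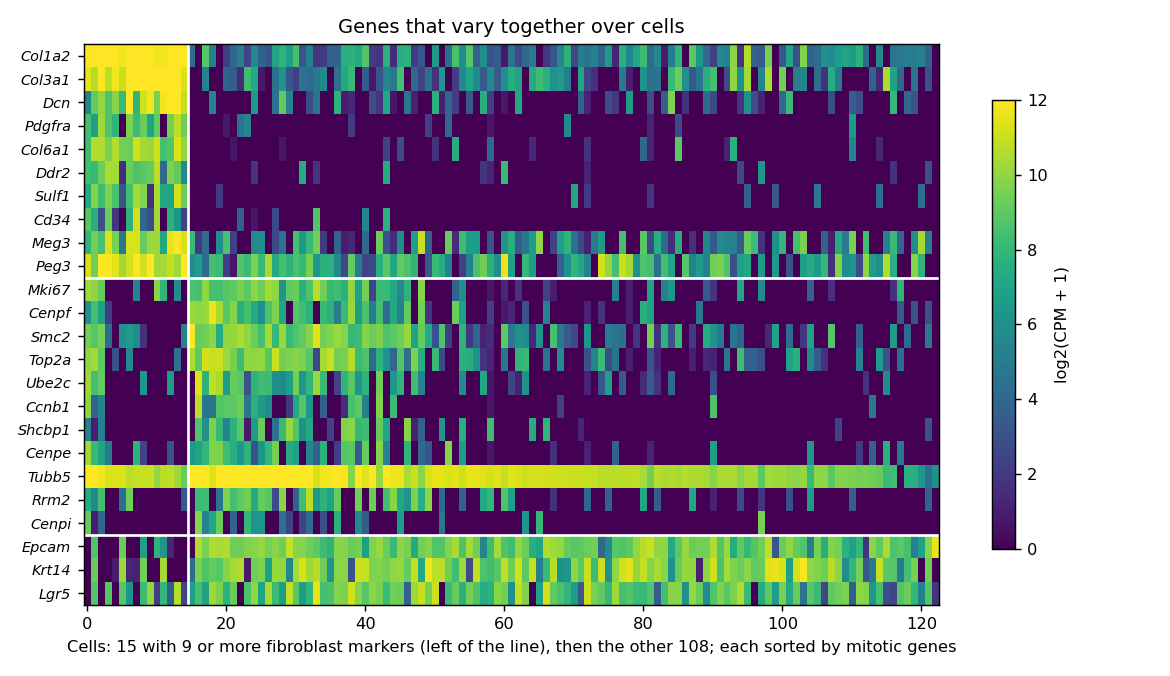
Heat map of log2(CPM + 1) for matrix and imprinted genes (top), mitotic genes (middle) and Epcam, Krt14 and Lgr5 (bottom) over all kept cells; columns are cells, with the 15 collagen-high wells left of the line and the others right of it, each sorted by the summed mitotic genes. Matrix genes are high on the left, mitotic genes fade from left to right within each set, and Krt14 is at 0 or low in most of the 15. Col1a2, Col3a1, Dcn and Pdgfra, shown at the top, are among the markers that chose the 15 wells.

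Promoters were read for the whole list of G2 and M genes, because some of them, such as Mki67 and Top2a, moved together over cells. Many such promoters are known to carry a CHR element, TTTGAA, which a repressor complex binds in resting cells, and CCAAT boxes bound by NF-Y. Promoters came from RefSeq on GRCm38.p6, and 24 of the 28 G2 and M genes had an entry (Aurkb, Ccna2, Smc4 and Tpx2 had none). Shown are the 150 bases before the start of 4 genes with both motifs in that window and of 1 gene with CCAAT only there. They run 5′ to 3′ along the gene's strand, to let the spacing be seen, and matches outside them are not shown. Capitals mark TTTGAA or CCAAT on either strand, so TTCAAA and ATTGG are the same motifs on the other strand. Mki67 is from chr7:135716380-135716529 (minus strand), Cdk1 from chr10:69352913-69353062 (minus), Top2a from chr11:99024190-99024339 (minus), Ube2c from chr2:164769779-164769928 (plus) and Cenpf from chr1:189688087-189688236 (minus).
Mki67: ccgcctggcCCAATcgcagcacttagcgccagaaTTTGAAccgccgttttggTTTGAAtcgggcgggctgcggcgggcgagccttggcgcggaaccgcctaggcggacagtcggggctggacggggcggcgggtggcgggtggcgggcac
Cdk1: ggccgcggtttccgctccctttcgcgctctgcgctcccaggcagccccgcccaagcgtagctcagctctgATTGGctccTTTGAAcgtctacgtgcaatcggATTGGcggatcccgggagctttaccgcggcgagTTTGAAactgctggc
Top2a: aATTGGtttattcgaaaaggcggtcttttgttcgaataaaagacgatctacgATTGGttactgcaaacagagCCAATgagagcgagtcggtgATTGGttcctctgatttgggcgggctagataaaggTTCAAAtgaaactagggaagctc
Ube2c: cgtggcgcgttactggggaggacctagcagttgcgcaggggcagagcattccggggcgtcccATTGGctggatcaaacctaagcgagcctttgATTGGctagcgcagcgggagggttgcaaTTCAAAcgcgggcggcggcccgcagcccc
Cenpf: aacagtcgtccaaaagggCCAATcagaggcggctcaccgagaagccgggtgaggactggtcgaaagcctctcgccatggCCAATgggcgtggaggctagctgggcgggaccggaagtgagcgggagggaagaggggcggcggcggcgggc

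In these windows no match of one motif overlaps a match of the other. Over the full 300 bases of each entry, from 250 before to 50 after the start, TTTGAA on either strand was in 18 of 24 G2 and M promoters (75%), against 18.1% of all 27025 promoters of the same length. CCAAT on either strand was in 19 of 24 (79.2%) against 37.9%, and both were in 16 of 24 (66.7%) against 7.12%. In the S phase list TTTGAA was in 3 of 17 promoters and CCAAT in 11 of 17. In the 150 bases before the start, TTTGAA was in 7 of the 24 (9.24% of all promoters) and CCAAT in 19 (25.3% of all promoters). A match is a run of letters and was not tied to binding in these cells.

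The plate also held 1 well of 50 cells from the same sort, with 621792 reads, 12124 genes and 12.2% mitochondrial reads. Over 8351 genes with 20 CPM or more in either, the levels of the single-cell sum and of this well had a Spearman correlation of 0.763. At least 2-fold apart were 3552 genes, of which 3152 were higher in the single-cell sum (37.7%) and 400 lower (4.79%), with a median log2 ratio of 0.70 over all genes. With TMM scaling the median was 0.11 and the split 1778 higher and 1185 lower, so the direction of a gene is best read relative to that shift. The well of 50 cells is 1 library, so the difference has no replicate check, and in a pooled well fewer cells of a kind and less RNA per cell cannot be told apart.

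Markers of the gate were present in the well of 50 cells. Sox11 was at 1098 CPM there and 1056 in the sum, Igf2 at 679 and 727, Epcam at 601.5 and 694, Fgfr2 at 767 and 801, and Krt14 at 659 and 1016. Lgr5 was at 297.5 and 550, Trp63 at 131.9 and 237, H19 at 1632 and 942, and Pthlh at 545 and 368.5. Of the collagens among the fibroblast markers, Col1a1, Col3a1 and Col1a2 were higher in the well than in the sum. They were at 1176 against 617 CPM, 3598 against 1228 CPM and 3311 against 1500, with log2 ratios of -0.93, -1.55 and -1.14. Col6a3, another of these markers, was higher too (260.5 against 148.9 CPM), while Col5a1 was lower (122.2 against 156.9 CPM). Col4a1, Col4a2 and Col18a1 were lower in the well, at 67.6 against 160 CPM, 83.6 against 207 and 70.8 against 237. Their log2 ratios were 1.234, 1.296 and 1.728, beside a median of 0.698 over all genes compared. Col17a1, at 0.7278, was near that median. A contrast between kinds of collagen was not tested. Jup, a junction protein, was at 20.9 CPM in the well and 299.9 in the sum. Over all genes compared, the largest ratios were Gm26917 (24.1 CPM in the well, 2150 in the sum) in one direction and Gm47111 (40.2 and 0.224) in the other, and Vapb, Met, Grb7 and Pigt, at 52.1 to 57.4 CPM in the sum, had 0 reads in the well.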

How the data were processed

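The authors deposited whole-number read counts in 1 table, with 384 wells as columns and 49585 genes plus 92 spike-ins as its entries. Libraries were made, per the labels' protocols, with Smart-seq2 and Nextera XT after 24 cycles of amplification. GRCm38 is the genome named in the submitters' processing notes, beside the tools HTSeq 0.6.0, STAR 2.5.2b and cutadapt 1.13. Neither annotation nor strand mode is given in the sources used, and overlapping or antisense genes may share reads.

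Wells were grouped by title and sort label. Kept were 123 of 137 embryonic, 100 basal and 108 luminal wells, of which 107, 82 and 101 were deep enough to thin. Without the 15 collagen-high wells, 108 embryonic cells remained and 92 after thinning. Spike-ins were left out of gene totals. Symbols, positions and union exon lengths were taken from GENCODE M21, where 49326 identifiers had a match (5577 after the version was dropped) and 259 had none. Thinning used a fixed seed. The trend of variation was a lowess curve (fraction 0.3) of log squared coefficient of variation on log mean. Ratios to the well of 50 cells used a prior of 1 CPM. Computations used python 3.11.15, numpy 2.4.6, pandas 2.3.3, scipy 1.17.1, statsmodels 0.14.6 and matplotlib 3.10.9, and were tested on simulated data.

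The gate, its markers and the gene lists were chosen with earlier results of these data known. Named are the label markers and gate genes, the 30 genes of highest level per length (ribosomal, mitochondrial and clone names left out), the 25 most and 10 least variable at 50 CPM or more, the leading genes of each group, the most detected and most variable members of each list, the most abundant of the marker lists and the 5 largest ratios each way against the well of 50 cells. Members at the low end of a list, mt-Rnr2, CT010467.1 and genes named for the 15 collagen-high wells were chosen after their values were seen. Some genes that these rules name are not reported here.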

Additional observations from a re-analysis of the deposited data

Results flagged for a closer look

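One well was titled as one kind of cell and labelled as sorted in another gate, and it entered no comparison. It had 774060 reads on genes, 4031 genes with a read and 5.51% mitochondrial reads, while the 4 wells without a cell had 34 to 563 reads. In it Csn3 was at 15939 CPM, Krt18 at 4095, Epcam at 1917, Cldn3 at 1915, Krt8 at 1543 and Lgr5 at 187. Krt14, Sox11, H19 and Trp63 had 0 reads there, and Igf2 had 1 read.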

How the results depend on the processing

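Among values of the leading results recomputed under other settings, 83 stayed within the limit set for them and 35 moved. Of the counts over the gene lists, 33.8% (69) moved and 66.2% stayed. The limit was the exact interval of the main value for shares of cells, and a fixed fold for most other results. For the share of the 100 most abundant genes it was an interval over all reads, which are not independent. A change there from 33.4% to 33.6% therefore counted as moved, and the split does not measure a spread. The cause of these moves was not tested, except where a setting by construction uses fewer cells, genes or reads.

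The share of the 100 most abundant genes (33.4%) was 32.9% with a stricter and 33.7% with a looser cell filter, 33.6% without cells with 3 or more fibroblast markers, 33.8% without those with 9 or more, 34.04% in plate rows K to P, 34.3% as a mean over cells, 20.7% from reads not scaled by length and 54.2% in the well of 50 cells. Sox11 was detected in 97.9% and Krt14 in 93.8% of the 48 thinned cells with fewer than 3 fibroblast markers, and in 98.9% and 93.5% without those with 9 or more. At 50000 reads Krt14 was detected in 75.6%, Igf2 in 89.4%, H19 in 82.9% and Trp63 in 52.03%. Trp63 was in 75.6% without thinning and 79.4% with 1 read as detection. Krt14 with Krt8 was in 81.5% without the 15 wells, 54.5% at 50000 reads and 83.2% with 1 read. Genes in at least 90% of cells numbered 150 at 50000 reads and 674 with 1 read.

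More variable genes numbered 621 after thinning, 1454 from a mean of 5 CPM, 533 from 50 CPM, and 142 (1.78% of genes) without the 3 highest cells of each gene, a share that was 1.29% with the 15 wells left out too. List members among them numbered 20 and 10 under these last settings. Genes 2-fold apart from the well of 50 cells numbered 1813 at 50 CPM or more and 8627 with no minimum. Groups of variable genes numbered 1 (9 genes) without cells with 3 or more fibroblast markers, 0 without the 15 wells, 0 with 100 genes, 2 with Pearson correlation and 2 without the 3 highest cells. The settings that leave out the 15 wells or the 3 highest cells were chosen after seeing the data. No paired analysis was possible because each gate is 1 sample and well numbers pair nothing.

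Depth limits low genes most: at 200000 reads a transcript under 25 CPM counts as not detected, which does not show that it is absent. Results describe 1 plate and cells whose animals are not named.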
